A study of Rattus norvegicus with 16 samples.

Results

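The subject is a group of 9 neuropeptide precursor genes, Trh, Npy, Sst, Penk, Pdyn, Cck, Tac1, Vip and Vgf, measured in rat dentate gyrus, the entry region of the hippocampal formation. Members were all probe sets that the array's annotation assigns to one of these 9 symbols. This gave 13 of the 8740 non-control probe sets, with Trh, Sst, Pdyn and Tac1 each represented by 2. 11 of the 13, from 8 genes, were bright enough to be tested, among 6220 probe sets and 3678 singly named genes tested in all. Total RNA was hybridised to 16 rat expression arrays of the Affymetrix RGU34A type, which read 1 sample each in a single colour. The groups were naive (3 arrays), 0 h (2 arrays), 2 h (2 arrays), 3 h (2 arrays), 6 h (3 arrays), 12 h (2 arrays) and 24 h (2 arrays). In passive avoidance, an animal learns to withhold entry to a place where it received a shock. All labels, those of the naive arrays too, name passive avoidance trained rats. Here the naive group is taken as untrained and the 6 groups with an hour are called trained, although no label says from which event the hours count. Strain, sex and age of the rats, and any pooling of animals, were not given in the sources used here. Since no label ties replicates to separate animals, the p-values below speak for the spread between these arrays, which may be technical.

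Neuropeptides are made as inactive precursor proteins, which prohormone convertases and carboxypeptidase E cut into active peptides inside dense-core vesicles. The peptides are released on strong activity and act on G protein-coupled receptors, and the genes of several of them respond to cyclic AMP and calcium through the factor CREB. In the dentate gyrus, granule cells make dynorphin and enkephalin, and hilar interneurons make somatostatin and neuropeptide Y. Trh, which encodes the precursor of thyrotropin-releasing hormone, is known for its induction in granule cells after seizures. Penk, Pdyn and Tac1 encode the precursors of enkephalins, of dynorphins and of substance P. Cck and Vip encode the precursors of cholecystokinin and of vasoactive intestinal peptide, both used by subsets of interneurons. Vgf encodes a secreted precursor of the granin type whose expression responds to neurotrophins.

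3 promoters are printed here because Trh had the widest time course of the group while Sst and Vgf carry the full CREB palindrome, so that a reader can set the letters beside the values that follow. Each runs from 250 bases before to 50 after the gene's annotated start, 5′ to 3′ on the gene's own strand, from RefSeq on the GRCr8 build. Trh lies at chr4:126301713-126302012 on the minus strand, Sst at chr11:90461296-90461595 on the plus strand, and Vgf at chr12:25276971-25277270 on the minus strand. Capitals mark matches, on either strand, to TGACNTCA or to TGACG, which is CGTCA on the opposite strand. TGACG is part of TGACGTCA but not of TGACCTCA.
Trh: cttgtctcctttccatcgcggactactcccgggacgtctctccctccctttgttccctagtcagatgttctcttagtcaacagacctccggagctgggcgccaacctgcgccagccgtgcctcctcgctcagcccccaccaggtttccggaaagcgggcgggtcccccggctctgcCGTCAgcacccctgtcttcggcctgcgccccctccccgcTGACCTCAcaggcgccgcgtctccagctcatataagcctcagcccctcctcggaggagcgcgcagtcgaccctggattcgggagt
Sst: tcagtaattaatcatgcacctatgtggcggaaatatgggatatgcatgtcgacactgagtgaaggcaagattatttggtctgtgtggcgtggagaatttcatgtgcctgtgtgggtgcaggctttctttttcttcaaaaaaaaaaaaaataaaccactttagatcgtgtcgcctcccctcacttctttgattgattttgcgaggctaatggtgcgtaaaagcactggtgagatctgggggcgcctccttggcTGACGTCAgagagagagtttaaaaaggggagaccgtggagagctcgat
Vgf: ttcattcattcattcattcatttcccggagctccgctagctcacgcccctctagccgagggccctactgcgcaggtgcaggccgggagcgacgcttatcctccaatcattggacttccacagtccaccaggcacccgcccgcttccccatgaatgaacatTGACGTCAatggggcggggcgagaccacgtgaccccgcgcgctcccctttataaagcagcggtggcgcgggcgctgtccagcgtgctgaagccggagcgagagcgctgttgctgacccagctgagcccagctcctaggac
In Trh, TGACCTCA begins 35 bases before the start, and a separate CGTCA begins 74 bases before it. Sst has the palindrome TGACGTCA at positions 3 to 10 counted from the annotated start, and Vgf has it from 90 to 83 bases before the start. These positions hold for the annotated starts only, and whether the Sst palindrome is transcribed was not tested. 7 of the 9 members had a promoter in the table used. Of the other four, Vip has 1 TGACG, Tac1 has 1 CGTCA, and Npy and Pdyn hold neither motif in this window. Penk and Cck had no entry. Over all 33469 promoters of the same length, 1.83% held TGACGTCA, 10.2% held TGACNTCA (a class that includes TGACGTCA), and 21.2% held TGACG on either strand. A match describes the letters only and is no evidence of a bound site.

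The deposited values are linear intensities, 1 for each probe set and array, and the 2% trimmed mean of the arrays ran from 33.3 on 12 h replicate 1 to 170 on 24 h replicate 2. Each array was therefore scaled to a trimmed mean of 105.3. For the tests, anything dimmer than 5.05 (the 20th percentile over all arrays) was raised to 5.05, and probe sets had to be brighter than 16.9 (the 40th percentile) on 2 or more arrays. 6 h replicate 2 and 12 h replicate 1 stood apart, with median correlations to the other arrays of 0.916 and 0.924, against 0.935 to 0.953 for the rest. Ttr, the defining gene of choroid plexus, was at 10.96 to 12.10 (log2) in the naive arrays and below all of them in 10 of the 13 trained arrays. The 3′/5′ ratio of the beta-actin controls, which increases as RNA degrades, was 1.49 to 1.70 in the naive arrays and above all of them in 12 of the 13 trained arrays. Neither measure is independent of the groups, so they are given where a value moved with them. As a check of the tissue, the granule cell marker Calb1 was at 289 to 498 on the 16 arrays, while the defining markers Prox1 of granule cells and Gfap of astrocytes had no probe set on this array. In bulk tissue, fewer cells of a type and less RNA per cell cannot be told apart.

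Trh stood highest at 2 h by its brighter probe set, M23643cds_s_at, and was above the naive arrays in all arrays from 2 h on. Its scaled intensities were 26.2, 28.8 and 24.9 in the naive arrays, 20.8 and 27.4 at 0 h, 60.7 and 65.1 at 2 h, 39.1 and 33.8 at 3 h, 29.1, 29.1 and 38.8 at 6 h, 48.0 and 40.2 at 12 h, and 51.0 and 35.3 at 24 h. Both 2 h arrays lay above every other array, and the 0 h arrays overlapped the naive range. The order of the group means was 2 h, 12 h, 24 h, 3 h, 6 h, naive and 0 h. In that order, neighbouring groups overlapped except for 2 h against 12 h and 6 h against naive.

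The log2 level of Trh by this probe set was 4.73 ± 0.11 (SD, n = 3) in naive and 5.97 ± 0.07 (SD, n = 2) at 2 h. The difference was 1.24 (SE 0.28, 95% interval 0.64 to 1.84), or 2.36-fold, with a limma p of 0.000459 that became 0.236 after Benjamini-Hochberg adjustment over all 6220 probe sets. By that p it ranked 9 among all probe sets at 2 h. It therefore did not pass the threshold of 0.05 adjusted. Over 29 other ways of processing the data, the difference ran from 0.89 to 1.42 and the adjusted p from 0.094 to 0.711.

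**Figure D1:**
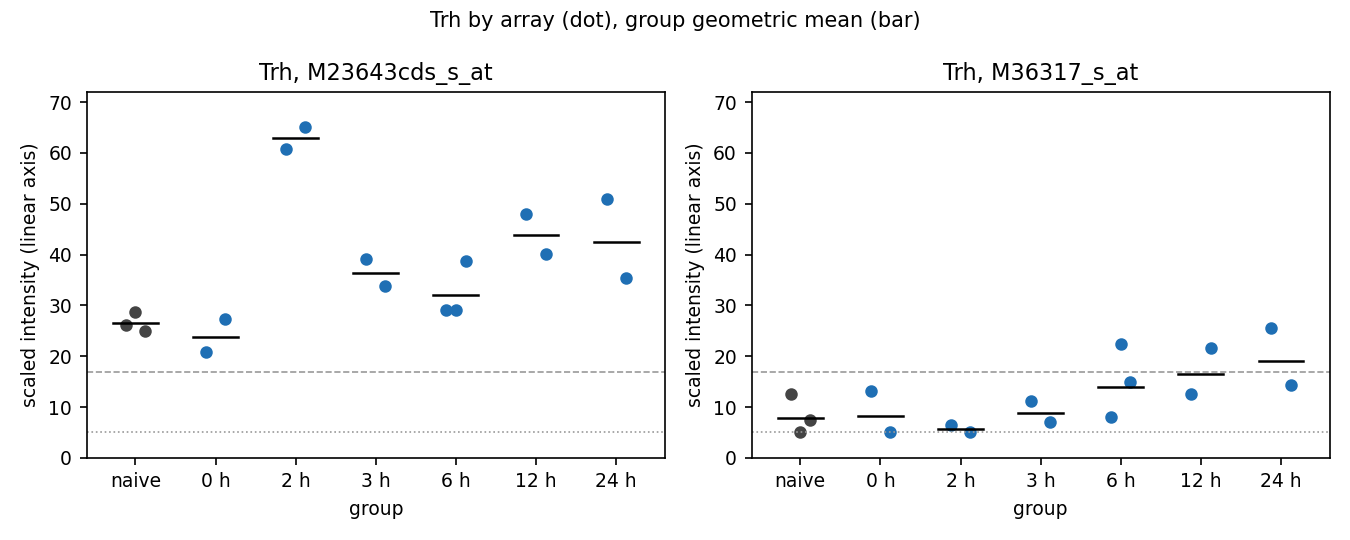
Scaled intensity of the 2 Trh probe sets (linear vertical axes, floored at 5.05, dotted line) in each of 16 arrays (dots) by group, with the group's geometric mean (bars) and the 16.9 limit of the filter (dashed line). M23643cds_s_at is at 60.7 and 65.1 at 2 h against 24.9 to 28.8 in naive, while M36317_s_at is near the floor at 2 h and reaches 25.6 at 24 h.

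Against the 0 h arrays, the 2 h level of Trh was higher by 1.4 (SE 0.31, 95% interval 0.74 to 2.06), or 2.63-fold, with a limma adjusted p of 0.159. With arrays weighted by their quality, that difference was still 1.4 (SE 0.28) and its adjusted p was 0.0369, the only alternative that put a member past the threshold. The weights also called more of all probe sets in this comparison than the main fit, where 0% passed. Their number is given in the closing section, so the call is not particular to Trh. From 2 h to 3 h the level was lower by 1.73-fold (-0.79, SE 0.31, limma adjusted p = 0.449). The 6 h group lay 0.27 (SE 0.25) above naive, with an interval from -0.27 to 0.81.

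At the late hours Trh again read above naive, by less and with less certainty. The 12 h group was 1.65-fold above naive (0.73, SE 0.28, limma unadjusted p = 0.0212, adjusted p = 0.434), and without 12 h replicate 1 the difference was 0.60. At 24 h the difference was 0.67 (SE 0.28, unadjusted p = 0.0304, adjusted p = 1). It was 0.41 without 24 h replicate 1 and 0.94 without 24 h replicate 2. Over the 16 arrays this probe set went with Ttr (r = -0.63), which was at 6.14 and 7.09 at 12 h and 6.42 and 6.06 at 24 h. With Ttr as a covariate the differences were 0.63 (SE 0.43) at 12 h and 0.57 (SE 0.45) at 24 h. With the beta-actin ratio they were 0.96 (SE 0.47) and 0.73 (SE 0.30). The part of Ttr in these values was not tested. Averaged over the 6 trained groups, Trh was 1.45-fold above naive (0.53, SE 0.20, 95% interval 0.11 to 0.96), and 12 of 13 trained arrays lay above the naive mean. The p was 0.0165 before and 0.922 after adjustment. In the F test over the 7 groups, Trh had F = 5.01 and an unadjusted p = 0.0043 (adjusted p = 0.287, rank 91), and over the 6 trained groups alone F = 4.69 and an unadjusted p = 0.00756 (adjusted p = 0.289).

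The other Trh probe set, M36317_s_at, gave another time course at much lower signal. Its scaled intensities were 12.5, 3.74 and 7.54 in the naive arrays, 13.2 and 4.25 at 0 h, 6.53 and 4.28 at 2 h, 11.2 and 7.02 at 3 h, 8.01, 22.5 and 14.9 at 6 h, 12.6 and 21.7 at 12 h, and 25.6 and 14.3 at 24 h. Only 3 arrays exceeded the filter limit of 16.9, and 3 were at the floor, among them 2 h replicate 2. The 24 h arrays lay above all naive arrays, while the 2 h arrays overlapped them. These 3 arrays, 6 h replicate 2, 12 h replicate 2 and 24 h replicate 1, were the only reason it entered the fit, so its late differences are not read as tests. All naive and 2 h arrays were below the limit, with a 2 h difference of -0.44 (SE 0.60, 95% interval -1.71 to 0.82). Over the 16 arrays the log2 values of the 2 Trh probe sets correlated with r = 0.01, as a description of arrays that share their scaling. So the high 2 h level of Trh rests on 1 probe set, and the dimmer one adds no support for the late values of the brighter one. In the array maker's naming, the suffix _s_at marks probes that match more than 1 sequence of the design.

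Other measures moved with Trh at 2 h. The log2 level of Ttr was 4.88 and 8.03 on the 2 h arrays, and the summed intensity of the choroid plexus and meningeal markers (16 of 18 on the array) was 874 to 3070 there against 3120 to 7860 in naive. The beta-actin ratios were 1.96 and 2.69 at 2 h. In a fit with Ttr as a covariate, the 2 h difference of Trh from naive was 1.14 (limma adjusted p = 0.611), and with the beta-actin ratio as a covariate it was 1.42 (adjusted p = 0.676). Thalamic and habenular markers (4 of 10 on the array) summed to 144 to 153 at 2 h and 119 to 148 in naive. Granule neuron markers (6 of 12 on the array) summed to 871 to 963 at 2 h and 903 to 1270 in naive, and both sums overlapped naive. Within the granule list, Neurod2 read 94.2 to 100 against 48.3 to 78.6 (limma unadjusted p = 0.0133), and Pcp4 read 279 to 348 against 363 to 600 (unadjusted p = 0.0323). Pyramidal neuron markers (6 of 12 on the array) had a mean log2 deviation of 0.22 to 0.23 at 2 h, above the naive range of -0.06 to 0.12, while their sums overlapped. By that deviation, thalamic and habenular markers were also above naive (0.06 to 0.35 against -0.28 to 0.04). So were striatal (0.02 to 0.17 against -0.3 to -0.02), endothelial and mural (0.2 to 0.28 against -0.26 to 0.14) and blood cell markers (-0.02 to 0.21 against -0.3 to -0.07). The other marker lists, granule markers included, overlapped naive by it. Oligodendrocyte markers (8 of 12 on the array) were below naive for 6 of 8 genes at 2 h, with a median of -0.49 and 3 at an unadjusted p under 0.05. Their sum was 3830 to 5630 at 2 h and 2870 to 3100 at 24 h, against 4560 to 6150 in naive. The part of these markers in the Trh values was not tested.

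No member passed the adjusted threshold in any of the 14 comparisons fitted with limma, which were each hour against naive, the trained mean against naive, the 5 steps between successive hours and the 2 F tests. The share of all 6220 probe sets that passed was 0.0161% at 2 h against naive, 0.0322% from 2 h to 3 h, 0.0322% from 12 h to 24 h, and 0% in the other 11 comparisons. Before adjustment, 1 member probe set of 11 had a p under 0.05 at 0 h (Cck), 2 h (Trh) and 12 h (Trh), and 2 had one at 24 h. Those 2 are the Trh probe sets, of which M36317_s_at entered only through arrays where it was high and is not counted as a result. None had one at 3 h or 6 h. The shares of all probe sets with such a p were 5% at 0 h, 7.67% at 2 h, 4.31% at 3 h, 9.41% at 6 h, 10.1% at 12 h and 4.44% at 24 h. For the trained mean it was 1 of 11 (Trh) against 5.35% of all. From 0 h to 2 h it was 1 (Trh) against 10.8%, from 2 h to 3 h 1 (Trh) against 9.07%, from 3 h to 6 h none against 6.75%, from 6 h to 12 h none against 7.30%, and from 12 h to 24 h 1 (Penk) against 9.60%. In the F tests it was 1 (Trh) against 10.3% over the 7 groups and 1 (Trh) against 10.8% over the trained groups. Read against these shares, counts of 0 to 2 members in 11 are near what the array gives as a whole. The 6 hourly comparisons share the same 3 naive arrays.

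Separation of an hour's arrays from the naive arrays was counted as well, and it was more frequent among the members at 12 h than at the other hours. Members with all arrays of the hour above all naive arrays numbered 0 of 11 at 0 h, 1 at 2 h, 2 at 3 h, 1 at 6 h, 3 at 12 h and 2 at 24 h. The counts at 12 h and 24 h include Trh M36317_s_at, which entered only through its high late arrays and is no support there. Without it they are 2 at 12 h and 1 at 24 h. The shares over all probe sets were 10%, 15.3%, 7.36%, 4.39%, 15.9% and 8.91% in that order. Members with all arrays below numbered 1, 2, 1, 2, 4 and 1, where all probe sets gave 11.8%, 11.8%, 12.3%, 6.56%, 11.8% and 11.9%. The 12 h group had the most separated members also without M36317_s_at. Trh M23643cds_s_at and Npy were above, and Sst (K02248cds_s_at), Penk, Pdyn (M10088cds_s_at) and Cck were below. M36317_s_at was separated by 12.6 against a naive maximum of 12.5, both under the filter limit. Other gaps at 12 h were narrow too: Npy read 257 and 277 against a naive maximum of 253. Sst K02248cds_s_at read 208 and 214 against a naive minimum of 215 (difference -0.06, SE 0.22). The other probe sets of Sst and Pdyn overlapped naive at 12 h. The 2 arrays of 12 h include the dimmest of the study. Besides Trh, the members above naive were Penk at 3 h, and those below were Cck at 0 h and 2 h, Sst (K02248cds_s_at) at 2 h, Vgf at 3 h and 24 h, and Penk and Pdyn (M10088cds_s_at) at 6 h.

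**Figure D2:**
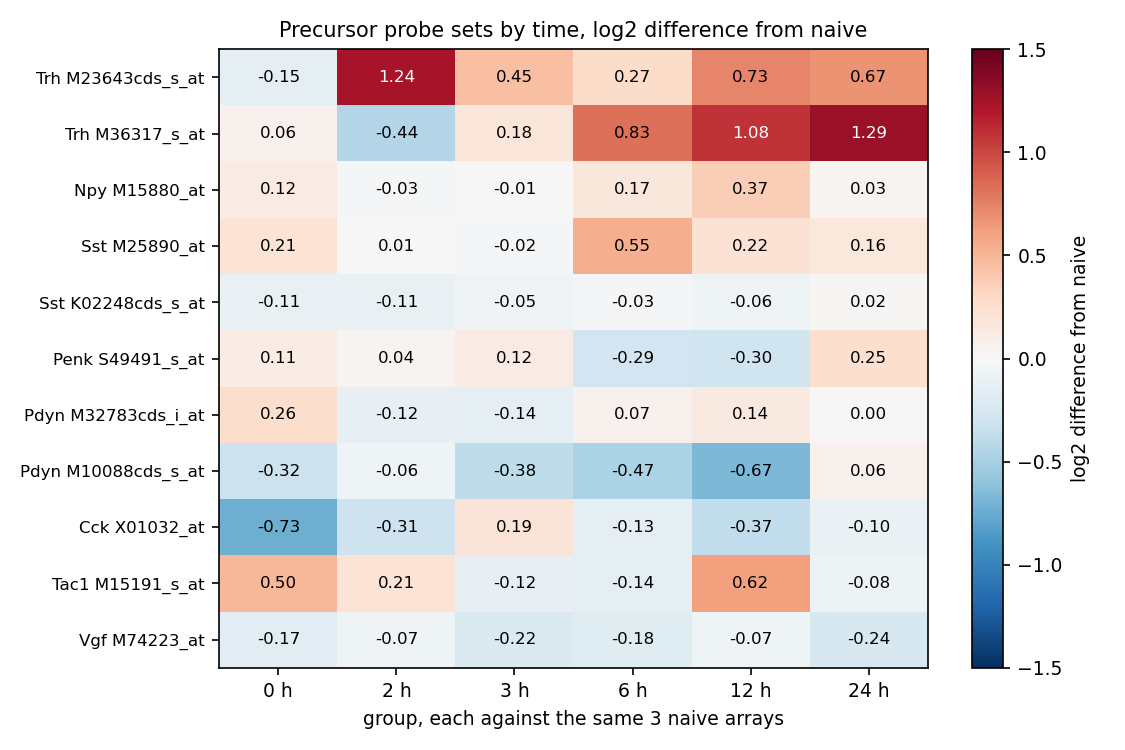
Log2 difference from naive (colour and printed value) for the 11 tested member probe sets (rows) in each trained group (columns). The 3 naive arrays serve every column, no cell passed at an adjusted p of 0.05, and the values past 1 are those of Trh at 2 h (M23643cds_s_at) and at 12 h and 24 h (M36317_s_at, which entered only through its high late arrays).

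The range between the highest and the lowest group mean was 1.4 on the log2 scale for Trh M23643cds_s_at and 1.73 for M36317_s_at. The latter entered the fit only through its high late arrays. Among the 11 tested members the median range was 0.57, against 0.78 for all tested probe sets, and 3 members exceeded that 0.78. The third was Cck with 0.92. Members other than Trh and Cck had ranges below that median of all, from 0.13 for Sst K02248cds_s_at to 0.75 for Tac1 M15191_s_at. These ranges were not matched for brightness or for the spread between arrays. The SD within groups was 0.17 for Vgf and 0.49 for Tac1 M15191_s_at, against a median of 0.36 for all tested probe sets.

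Among the opioid precursors, Penk read lower at 6 h and 12 h than in naive, and overlapped naive at 24 h. Penk S49491_s_at read 96.0, 101 and 93.0 in the naive arrays, 117 and 92.6 at 0 h, 84.7 and 116 at 2 h, 104 and 106 at 3 h, 79.0, 69.6 and 90.2 at 6 h, 74.6 and 82.8 at 12 h, and 97.7 and 134 at 24 h. All 5 arrays of 6 h and 12 h lay below all naive arrays. The differences were -0.29 (SE 0.21) at 6 h and -0.30 (SE 0.23) at 12 h, and neither passed. With Ttr as a covariate they were -0.21 (SE 0.20) and 0.08 (SE 0.33). With the beta-actin ratio as a covariate they were -0.39 (SE 0.26) and -0.49 (SE 0.38). Penk also went with the log2 factor by which each array was scaled (r = -0.56 over 16 arrays), which was largest for 12 h replicate 1. From 12 h to 24 h Penk was 1.46-fold higher (0.54, SE 0.26, limma unadjusted p = 0.0489, adjusted p = 0.514). That step was 0.31 without 24 h replicate 2.

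Pdyn was read by 2 probe sets that disagreed. M10088cds_s_at read 92.1, 65.7 and 67.3 in the naive arrays, 69.6 and 50.6 at 0 h, 76.0 and 66.8 at 2 h, 80.2 and 40.5 at 3 h, 64.3, 40.2 and 59.1 at 6 h, 58.4 and 37.2 at 12 h, and 86.1 and 69.5 at 24 h. Like Penk, it was below every naive array at 6 h and 12 h and overlapped them at 24 h. The 12 h difference was -0.67 (SE 0.33, 95% interval -1.37 to 0.03, limma unadjusted p = 0.0594, adjusted p = 0.504). M32783cds_i_at, the brighter one, ran from 242 to 458 over the arrays with a 12 h difference of 0.14 (SE 0.24), and its r with M10088cds_s_at over 16 arrays was 0.13. The direction of Pdyn at 6 h and 12 h therefore depends on the probe set. M10088cds_s_at also went with the beta-actin ratio (r = -0.58 over 16 arrays), which was 2.40 and 2.80 at 12 h. With that ratio as a covariate its 12 h difference was 0.08 (SE 0.49) and its trained mean went from -0.31 to 0.14. With Ttr as the covariate the 12 h difference was -0.24 (SE 0.48).

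For the interneuron peptides Sst and Npy, every interval of a difference from naive included 0. Sst M25890_at read 388, 391 and 775 in the naive arrays, 548 and 584 at 0 h, 488 and 497 at 2 h, 398 and 587 at 3 h, 809, 1140 and 402 at 6 h, 487 and 664 at 12 h, and 471 and 638 at 24 h. The spread within naive and within 6 h was as wide as any step between groups. The 6 h difference was 0.55 (SE 0.33, 95% interval -0.15 to 1.25), and the 2 h difference was 0.01 (SE 0.37). K02248cds_s_at was tighter, from 159 to 251 over all arrays, with differences from naive between -0.11 and 0.02 at the 6 hours. Its lowest array, 6 h replicate 3, was also the lowest of its group by M25890_at, and the 2 probe sets correlated with r = 0.69.

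Npy M15880_at read 188, 183 and 253 in the naive arrays, 246 and 204 at 0 h, 175 and 233 at 2 h, 181 and 232 at 3 h, 273, 202 and 225 at 6 h, 277 and 257 at 12 h, and 176 and 252 at 24 h. The 12 h arrays lay just above the highest naive array, and every other hour overlapped naive. The 12 h difference was 0.37 (SE 0.24, 95% interval -0.13 to 0.88), and those of the other hours lay between -0.03 and 0.17. Summed interneuron markers (12 of 16 on the array) were 1240 to 1970 in naive, 1580 to 1660 at 0 h, 1230 to 1420 at 2 h, 1190 to 1230 at 3 h, 1220 to 1770 at 6 h, 1350 to 1750 at 12 h and 1200 to 1360 at 24 h. By these sums the 3 h arrays were below the naive range, and the other hours overlapped it. By mean log2 deviation, the 3 h arrays (-0.26 to -0.21) and the 24 h arrays (-0.14 to -0.1) were both below naive (0.03 to 0.2). The remaining hours overlapped naive by that measure. Gad2, which makes GABA in interneurons, was at -1.45 (SE 0.40, limma adjusted p = 0.777) at 3 h and -0.67 (SE 0.28, adjusted p = 0.922) in the trained mean. The part of these markers in the Sst and Npy values was not tested.

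Cck read lowest at 0 h. Cck X01032_at read 358, 297 and 331 in the naive arrays, 184 and 213 at 0 h, 289 and 241 at 2 h, 291 and 479 at 3 h, 233, 318 and 364 at 6 h, 240 and 266 at 12 h, and 272 and 342 at 24 h. The 0 h arrays lay below all other arrays of the study, and the 2 h and 12 h arrays lay below all naive arrays. The 0 h difference was -0.73 (SE 0.25, 95% interval -1.25 to -0.21), or 1.66-fold lower, with a limma p of 0.00886 and an adjusted p of 0.835. Over the alternatives it ran from -1.04 to -0.62. The beta-actin ratio was 2.62 and 2.30 on the 0 h arrays, above the naive range, and with that ratio as a covariate the difference was -1.04 (adjusted p = 0.998). At 3 h Cck overlapped naive, with 3 h replicate 2 the brightest array of all.

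**Figure D3:**
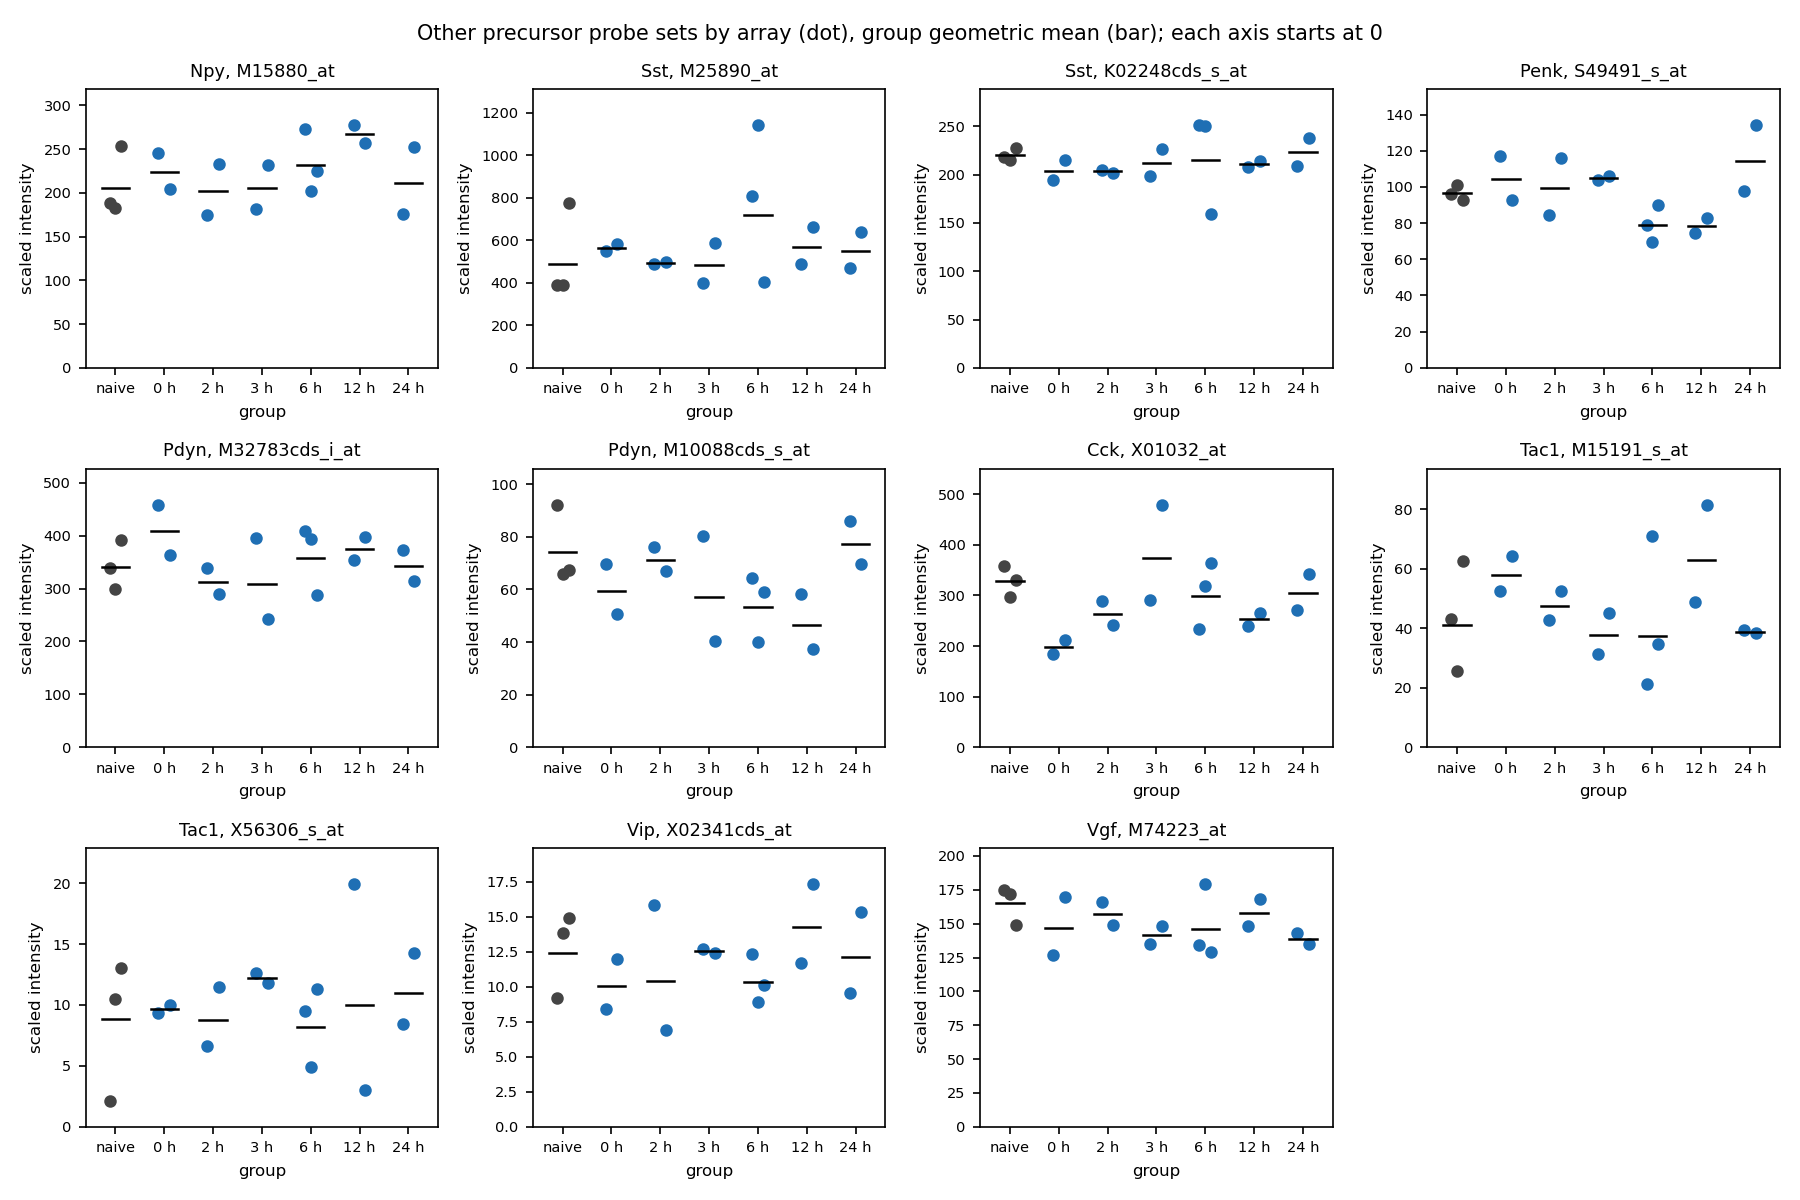
Scaled intensity (linear vertical axes from 0, no floor) of the 11 member probe sets other than those of Trh in each array (dots) by group, with the group's geometric mean (bars, computed with the floor). Cck lies at 184 and 213 at 0 h against 297 to 358 in naive, and Penk at 69.6 to 90.2 in 6 h and 12 h against 93.0 to 101 in naive.

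Tac1 and Vip had the least informative values. Tac1 M15191_s_at read 43.1, 25.6 and 62.6 in the naive arrays, 52.4 and 64.2 at 0 h, 42.8 and 52.4 at 2 h, 31.4 and 45.2 at 3 h, 21.2, 70.8 and 34.7 at 6 h, 48.7 and 81.4 at 12 h, and 39.3 and 38.4 at 24 h. Every hour overlapped the wide naive range. The differences from naive ran from -0.14 (SE 0.40) at 6 h to 0.62 (SE 0.44) at 12 h. Tac1 went with the beta-actin ratio (r = 0.65 over 16 arrays), and with that ratio as a covariate its 12 h difference was -0.61 (SE 0.62) and its trained mean went from 0.16 to -0.57. With Ttr as the covariate the 12 h difference was -0.02 (SE 0.64). Tac1 X56306_s_at and Vip X02341cds_at exceeded the filter limit on 1 array each, so they were not tested. Their scaled intensities were 2.16 to 19.9 and 6.88 to 17.3. Striatal neuron markers, relevant because striatum is rich in Penk and Tac1, were represented by 7 of 10 genes and summed to 320 to 403 in naive and 429 to 466 at 12 h. Of the defining ones, Drd2 stayed below the filter limit on all arrays, while Adora2a was above it on all 16 (24.6 to 76.1) and Drd1 on 14. At 2 h, Drd1 was at 34.0 to 36.6 against 18.3 to 25.4 in naive. At 12 h, where Tac1 was highest, Adora2a was at 0.82 (SE 0.38, limma adjusted p = 0.49). The part of these markers in the Tac1 and Penk values was not tested.

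Vgf was the steadiest single-probe-set member. Vgf M74223_at read 175, 172 and 149 in the naive arrays, 127 and 170 at 0 h, 166 and 149 at 2 h, 135 and 148 at 3 h, 134, 179 and 129 at 6 h, 148 and 168 at 12 h, and 143 and 135 at 24 h. The 3 h and 24 h arrays lay just below the lowest naive array. All 6 differences were negative, from -0.24 (SE 0.22) at 24 h to -0.07 at 2 h and 12 h, and each interval included 0. With the trained groups averaged, the value was -0.16 (SE 0.15, 95% interval -0.48 to 0.16). Vgf and Sst, the members with a TGACGTCA palindrome printed above, thus had 2 h differences of -0.07 (SE 0.22) and 0.01 (SE 0.37), while Trh, with TGACCTCA, had 1.24 (SE 0.28), by M74223_at, M25890_at and M23643cds_s_at. By their other probe sets, Sst was at -0.11 (SE 0.22) and Trh at -0.44 (SE 0.60). 3 genes do not allow a test of any relation between motif and level.

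**Figure D4:**
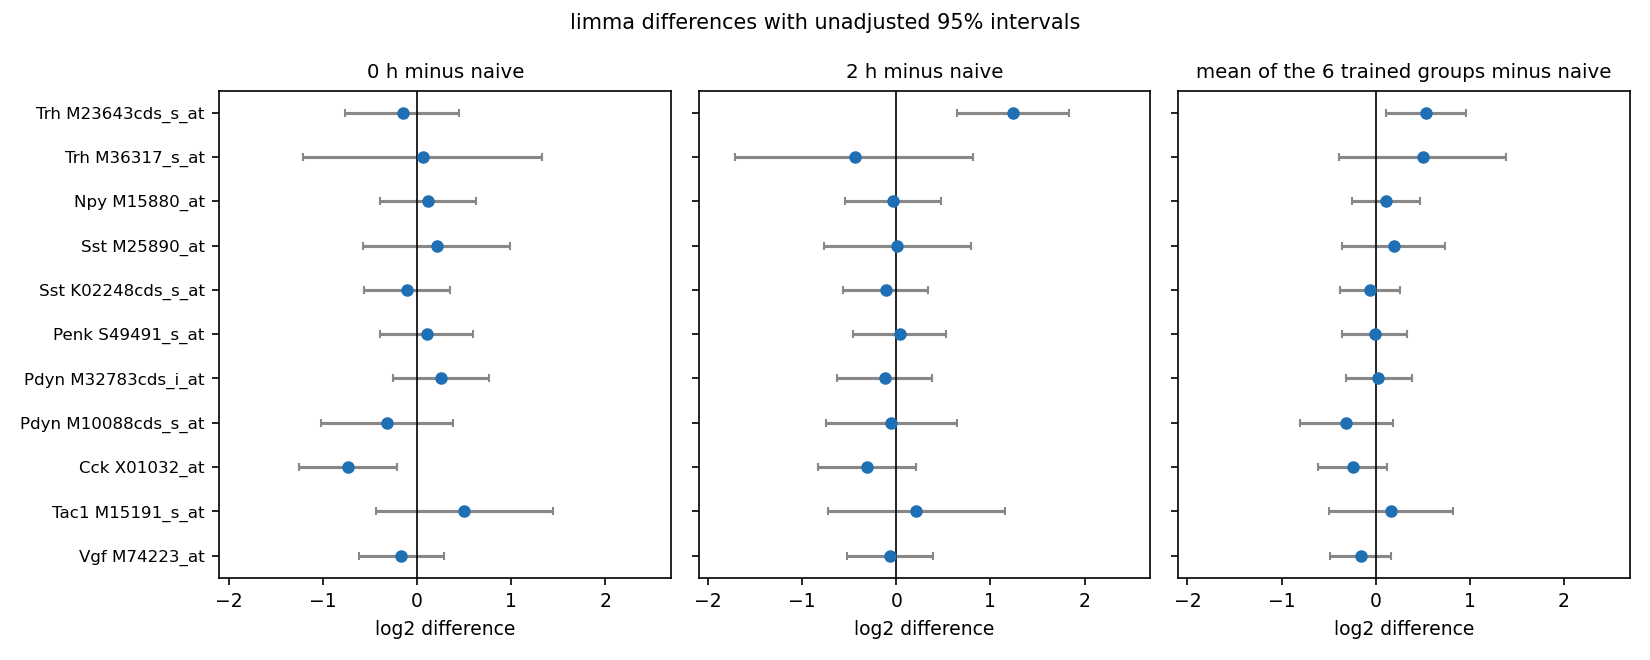
Log2 differences (points) with unadjusted 95% intervals (bars) from limma for the 11 tested member probe sets: 0 h minus naive, 2 h minus naive, and the mean of the 6 trained groups minus naive. Intervals that exclude 0 are those of Cck at 0 h (-1.25 to -0.21), and of Trh M23643cds_s_at at 2 h (0.64 to 1.84) and for the trained mean (0.11 to 0.96).

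In the trained mean, 6 member probe sets were above and 5 below naive, with a median of 0.03, where all probe sets had a median of -0.01. At 2 h, 4 were above and 7 below, with a median of -0.06 against 0.03 for all. At 24 h, 8 were above and 3 below, with a median of 0.03 against 0 for all, of which 49.5% were above. The other hours split 6 to 5, 4 to 7, 5 to 6 and 6 to 5 (0 h, 3 h, 6 h and 12 h). The intervals limit what could be seen: over the members, the median half-width of an interval was 0.52 at 2 h and 0.36 for the trained mean, and the widest was 1.27 at 2 h. The 55 correlations between members over 16 arrays had a median of -0.02 and ran from -0.65 for Pdyn M32783cds_i_at with Cck to 0.69 for the Sst pair. All points share the arrays and their scaling.

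Other genes of the neuropeptide pathway gave no call either. Of 33 other precursor genes listed, 26 were on the array and 19 were tested. At 2 h, 13 were above and 6 below naive, with a median of 0.35 where all probe sets had 0.03. In the trained mean, 12 were above and 7 below naive with a median of 0.11, and 1 had an unadjusted p under 0.05. That one was Oxt, the oxytocin precursor (0.81, SE 0.35, limma adjusted p = 0.922). It entered the fit only through 7 trained arrays. Its naive arrays read 8.31, 6.45 and 13.2, all under the filter limit of 16.9, so this p is no support for a difference. The trained arrays of Oxt read 6.63 to 30.9. Edn3, encoding endothelin 3, was at 0.90 (SE 0.43). Its naive arrays read 25.1, 7.2 and 14.2, of which 1 exceeded the filter limit, and its trained arrays read 6.14 to 37.3. Hcrt, the orexin precursor, was at -0.37 (SE 0.18).

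Of 23 receptor genes for the members' peptides, 14 were tested, 7 above and 7 below naive in the trained mean, with a median of 0. The receptor of thyrotropin-releasing hormone, Trhr, read 67.0, 75.2 and 81.2 in the naive arrays, 152 and 121 at 0 h, 28.6 and 69.6 at 2 h, 116 and 130 at 3 h, 52.2, 117 and 30.7 at 6 h, 73.6 and 128 at 12 h, and 103 and 137 at 24 h. It was above all naive arrays at 0 h, 3 h and 24 h. The 2 h arrays, where Trh was highest, were both below the 0 h and 3 h arrays, but they overlapped naive (-0.74, SE 0.45). At 3 h and 24 h both Trhr and Trh M23643cds_s_at lay above all naive arrays. A relation between the levels of Trh and Trhr was not tested. From 0 h to 2 h the difference of Trhr was -1.60 (SE 0.49, limma adjusted p = 0.269), from 2 h to 3 h it was 1.46 (SE 0.49, adjusted p = 0.359), and the F test over 7 groups had an unadjusted p = 0.0251 (adjusted p = 0.44). Cckbr, the main brain receptor of cholecystokinin, was at 0.03 (SE 0.22) in the trained mean.

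Of 18 processing enzymes and granins, 13 were tested, and 10 were above and 3 below naive in the trained mean, with a median of 0.06 and no unadjusted p under 0.05. At 12 h, 11 were above and 2 below, with a median of 0.40 where all probe sets had 0.06. Carboxypeptidase E, Cpe, was at 0.56 (SE 0.26, limma adjusted p = 0.49) there, with arrays of 5390 and 2930 against 2410 to 3130 in naive. Without 12 h replicate 1, the dimmest array, the value of Cpe was 0.12, and the list's median was 0.36 with 10 above and 3 below. Cpd, the related carboxypeptidase D, was at 0.76 (SE 0.35) at 2 h and -1.09 (SE 0.35, adjusted p = 0.353) at 12 h. Cpd read 219, 272 and 175 in the naive arrays, 302 and 454 at 2 h, and 126 and 83.9 at 12 h, so both hours were separated from naive in opposite directions. Chgb, the vesicle protein chromogranin B, was at 0.58 (SE 0.26, adjusted p = 0.628) at 2 h, where its arrays read 1140 and 1340 against 700 to 1020 in naive.

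Of 13 peptide-degrading enzymes, 9 were tested, and 3 were above and 6 below naive in the trained mean. Ace, angiotensin-converting enzyme, had the smallest p of the list, at -1.51 (SE 0.34, limma adjusted p = 0.252). Ace is also abundant in choroid plexus, and its naive arrays read 42.2, 229 and 145 against 21.9 to 56.9 in the trained arrays. Choroid plexus markers were below naive for 12 of 16 genes in the trained mean, and their part in the Ace value was not tested.

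Of 30 activity-induced early genes, 22 were tested and split 11 above to 11 below in the trained mean, with a median of 0. Nptx2, a synaptic pentraxin induced by activity, was at 0.43 (SE 0.16, limma adjusted p = 0.922), and Jun was at -0.46 (SE 0.21, adjusted p = 0.931). Dusp6, a phosphatase of the ERK kinases, read 71.1, 83.8 and 88.8 in the naive arrays and 133 and 169 at 2 h, a difference of 0.89 (SE 0.35, adjusted p = 0.575). At 3 h it read 82.8 and 29.7, and at 0 h it read 129 and 89.6, so that its 2 h arrays, like those of Trh, lay above the arrays of both neighbouring hours. Unlike those of Trh, they did not lie above every other array, since Dusp6 read 121, 134 and 92.7 at 6 h.

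Among all tested genes, those whose log2 levels followed Trh M23643cds_s_at most closely over the 16 arrays were Ankra2 (r = 0.83), Pdap1 (r = 0.82) and Erbb2 (r = 0.78). Their 2 h differences from naive were 0.56 (SE 0.28) and 0.26 (SE 0.18) for the first and second, while Erbb2 had a median intensity of 6.44, near the floor, and exceeded the filter limit on 2 arrays, none of them naive. For Sst M25890_at they were Plcg1 (0.90), Dync1li2 (0.87) and Cxcl14 (0.86), and for Npy they were Arhgap25 (0.80), Sh3gl3 (0.80) and Pkm (0.79). Penk was followed by Lrrc59 (0.84), Tfpi (0.83) and Adam1a (0.80), Pdyn M32783cds_i_at by Hspb1 (0.79), Chrnb4 (0.77) and P2ry4 (0.77), and Cck by Psmc3 (0.81), Ddn (0.81) and Dapk3 (0.79). Tac1 was followed by Rad51ap1 (0.85), Tmeff1 (0.83) and Zranb2 (0.83), and Vgf by Dgka (0.77), Lipa (0.75) and Gpr161 (0.71). For each member these are the 3 highest of the correlations with all other tested genes, members left out, over arrays that share their scaling.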

How the data were processed

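Total RNA from rat dentate gyrus was measured on 16 arrays in 7 groups, which were taken from the labels. The authors deposited 1 linear intensity per probe set and array; background correction, software and any scaling were not given in the sources used here, and the number of arrays limits the precision. The table held 8799 probe sets, of which 59 controls were left out. Arrays were scaled to a 2% trimmed mean of 105.3 (the median of the arrays' own), floored at the pooled 20th percentile (5.05), filtered at the 40th (16.9, on at least 2 arrays) and taken to log2. Linear models were fitted in limma 3.58.1 (R 4.3.3; lmFit, eBayes with a variance trend) to all 6220 probe sets and 7 groups at once, with Benjamini-Hochberg adjustment over all 6220 and a threshold of 0.05; the script was checked on simulated data. A scale effect of 1 array can move its values together.

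Gene names come from the annotation of the platform, brought up to date through gene identifiers: 7006 probe sets had 1 symbol, 308 had several and 1426 were not listed. The members and lists were chosen with earlier results of these data known, so their results are descriptions. Text names all members, the 3 closest genes of each member's brightest probe set, and up to 4 genes a list by smallest p (trained mean or F test); lists use 1 probe set a gene, that of highest mean. Alternatives were quantile and median normalization, 2 floors, 2 filters, no variance trend, array weights, a replicate block, fits of the compared groups alone, beta-actin and Ttr covariates, leaving out each array, and, chosen after seeing the data, leaving out both least correlated arrays.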

Additional observations from a re-analysis of the deposited data

How the results depend on the processing

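Over 29 alternatives, 549 recomputed values of 19 member results gave 528 with the same direction and call, 1 newly called and 20 of the opposite sign. Of 405 recomputed counts of called members, 1 was above 0: with array weights, 1 member passed from 0 h to 2 h (Trh 1.4, adjusted p = 0.0369; 0.0369 to 0.519 over all alternatives). The 20 sign changes all concern uncalled trained means. With the beta-actin covariate these were Npy -0.08, Sst M25890_at -0.23, Pdyn M10088cds_s_at 0.14 and Tac1 -0.57. With the Ttr covariate they were Sst M25890_at -0.03, Penk 0.29, Pdyn M10088cds_s_at 0.03 and Tac1 -0.34. Penk was also 0.04 with quantile normalization, 0.02 with median centring and 0.01 without both least correlated arrays. Leaving out 1 array gave -0.05 to 0.03 for Penk, -0.06 to 0.13 for Pdyn M32783cds_i_at and -0.18 to 0.47 for Tac1. The cause was not tested. With the replicate number as a block, Penk was 0.01 and Trh at 2 h 1.29 (adjusted p = 0.475); the block changed no member's call. Replicate numbers were not used as pairs in the main fit. As a description, 12 of 43 same-number pairs of arrays correlated over 0.1 (median 0.02), against a median of -0.02 for different numbers. Whether arrays of the same number shared any processing was not tested. Median centring shifted the median of all probe sets from -0.10 to 0.17 between 2 h and 3 h, where Trh was -0.52. The number of all probe sets called, 0 to 2, was 0 to 28 without a filter, up to 44 with array weights (0 h to 2 h), and 0 to 52 when 1 array was left out (52 from 12 h to 24 h without 12 h replicate 2). 2 or 3 arrays a group limit what these tests can call.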
